A study of Mus musculus with 60 samples.

Results

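Gene expression in the colon of naïve mice was compared between the start and the end of the light phase. The comparison took every library that the labels give as colon, naïve and either ZT0 or ZT12, which left 10 of the 60 RNA-seq libraries of the study, 5 at each time. Zeitgeber time (ZT) counts hours from lights on, so that ZT0 is lights on and ZT12 lights off in a cycle of 12 h light and 12 h dark. The study as a whole asked how collagen-induced arthritis (CIA), an autoimmune joint disease of mice, affects daily rhythms of the gut, and it sampled colon of CIA and naïve mice every 4 h. All mice were male DBA/1, an inbred strain, and had an unaltered genotype. The naïve mice were never immunised, but they shared cages with mice that had CIA, and their tissue was taken when the CIA mice were 7 days into disease. The mice to be immunised were 9 to 10 weeks old at the first injection, and the labels give no separate age for the naïve mice. Each library was made from a 5 mm piece of mid-colon, which holds epithelium, connective tissue, nerves and muscle together.

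Nearly every cell holds a molecular clock. CLOCK (or its relative NPAS2) and BMAL1, the product of Arntl, bind E-box elements and switch on the Per and Cry genes, whose proteins then block that binding, and the Nr1d1 and Nr1d2 genes, whose proteins (REV-ERBα and REV-ERBβ) bind ROR elements and shut off Arntl. The same loop drives DBP, TEF and HLF, which activate genes with D-box elements, and NFIL3, which represses them. In the gut, daily rhythms of crypt cell division, nutrient uptake and barrier function have long been known, and mice feed mostly in the dark, so lights off comes at the end of the daily rest and lights on at the end of the main feeding period.

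The tissue had the genes of colon. The summed level of 5 colonocyte markers ranged from 4851 to 9682 counts per 1000000 (CPM) at ZT0 and from 6415 to 9006 CPM at ZT12, and that of 5 goblet cell markers from 18505 to 26568 CPM and from 15646 to 26350 CPM. Total counts per library lay between 29214841 and 61425974. The labels give each library a replicate number and no animal, so p values measure the spread between these libraries. Libraries also differed in ways that crossed the times. ZT0 replicate 5 had a skeletal muscle score of 2.96, against 0.52 to 1.16 in the other 9 libraries, where a score is the mean log2 CPM of a list's tested genes. ZT12 replicate 3 had an interferon score of 6.99, against 4.32 to 5.09 elsewhere. The libraries further differed in genes that mark position along the gut. Hoxb13, a homeobox gene of the most posterior gut, was at 217, 293, 237, 394 and 0 CPM in ZT0 replicates 1 to 5 and at 0, 429.8, 31.4, 377 and 108 CPM in ZT12 replicates 1 to 5. Hoxb8, a more anterior homeobox gene, ran the other way, at 0.965, 1.17, 1.31, 0.877 and 32.4 CPM and 28.5, 0.464, 5.0, 0.328 and 1.4 CPM. Reg3b, which encodes an antimicrobial lectin of the epithelium, was at 0.36, 2.38, 40.6, 0.0399 and 625 CPM and 547, 0.232, 851, 0 and 4.23 CPM. These genes were picked after their values were seen. ZT0 replicate 5 and ZT12 replicates 1 and 3 had the least Hoxb13 and the most Reg3b, and the first principal component (39.2% of variance) set these 3 libraries apart at its upper end, whereas the second (18% of variance) followed time, with scores of 3.03 to 41.3 at ZT0 and -45.2 to 2.06 at ZT12. Ranges over runs that left out 1 library each are given below for the counts and list medians that such a library moved most.

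The data held 16694 genes after a filter on low counts. Log2 fold changes are ZT12 over ZT0, so that a positive value is higher at lights off, with a standard error (SE) from the same fit. Of these genes, 49 were higher at ZT12 (0.294% of those tested) and 78 were higher at ZT0 (0.467%) in edgeR's quasi-likelihood test at an adjusted p below 0.05. At an unadjusted p below 0.05 the counts were 1105 (6.62%) and 1535 (9.19%). All 5 values of one time lay above all 5 of the other in 49 of the 49 and in 74 of the 78 genes, and across all tested genes this was so for 258 genes higher at ZT12 (1.55%) and 460 higher at ZT0 (2.76%). The median fold among called genes was 1.97 and 2.05, and 23 and 40 genes differed by more than 2-fold. The number of calls depended on the tool and on single libraries. DESeq2 called 312 (1.95%) and 523 (3.27%) genes of the 15995 to which it gave an adjusted p, limma-voom 136 (0.815%) and 260 (1.56%), and edgeR with all 30 naïve libraries in the fit 186 (1.11%) and 398 (2.38%). Leaving out ZT0 replicates 1 to 5 in turn gave 18 and 19, 28 and 40, 26 and 31, 27 and 29, and 92 and 198 genes higher at ZT12 and at ZT0. Leaving out ZT12 replicates 1 to 5 in turn gave 54 and 38, 26 and 17, 27 and 33, 22 and 18, and 17 and 16 genes. Without the 3 libraries lowest in Hoxb13, a choice made after the data were seen, 76 and 123 genes were called. No called gene changed direction under any of these settings.

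**Figure D1:**
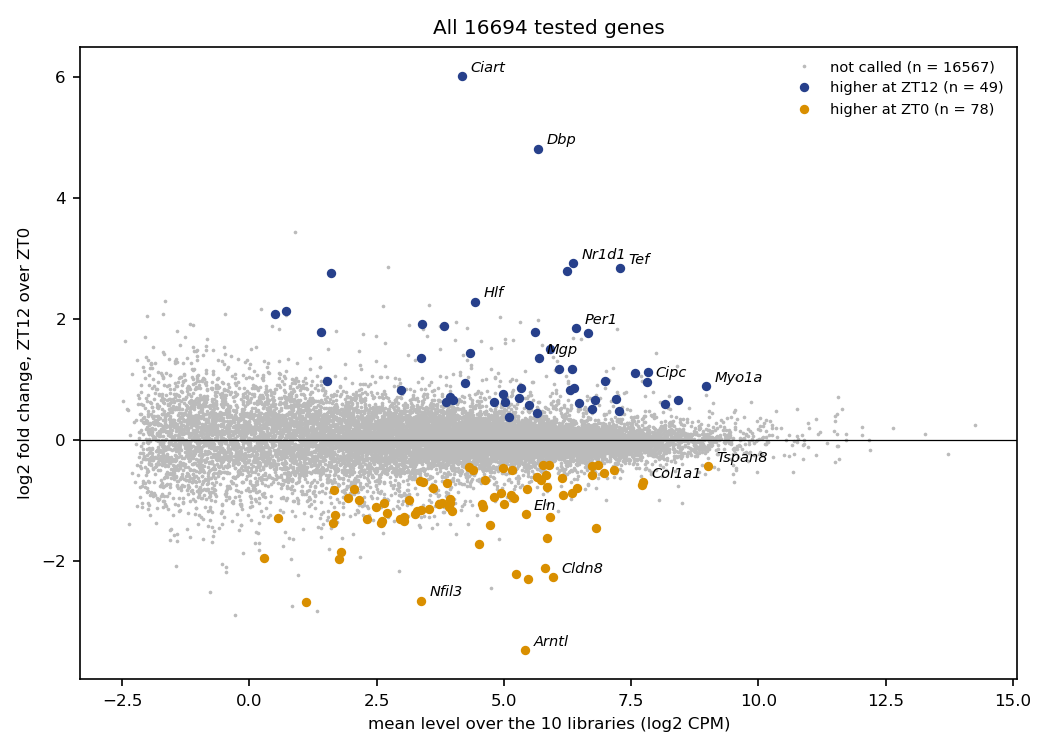
Log2 fold change of each tested gene (ZT12 over ZT0, vertical axis) against its mean level over the 10 libraries (log2 CPM, horizontal axis), with called genes in colour (49 blue, higher at ZT12; 78 orange, higher at ZT0) and the rest in grey. The clock genes Ciart and Dbp stand farthest above 0 and Arntl farthest below among the called genes.

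Clock genes gave the largest difference in each direction. Of 23 tested genes in the list of core clock genes and clock outputs, 10 were higher at ZT12 and 4 were higher at ZT0, where 0.294% and 0.467% of all genes were called. Ciart, Dbp, Nr1d1, Tef, Nr1d2, Hlf, Bhlhe41, Per1, Per3 and Per2 made up the first group and Arntl, Nfil3, Npas2 and Cry1 the second. Of the 23 genes 14 had a positive and 9 a negative log2 fold change, with a median of 0.58, against 0.0033 over all genes. Since members went both ways this median moved with the libraries, down to 0.31 without ZT12 replicate 1, 0.35 without ZT0 replicate 3 and 0.36 without ZT12 replicate 3, and 0.33 without the 3 libraries lowest in Hoxb13.

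The binding elements named above are short, and several promoters of these genes hold them. Promoter sequences were those of RefSeq (GRCm38.p6), from 250 bases before to 50 bases after a transcription start, and both strands were searched for the E-box letters CACGTG, which read the same on both strands, the D-box letters TTATGTAA or TTACGTAA, and the ROR element letters TAGGTCA. None of these motifs contains another, and matches are letters in a window, not measured binding. The E-box letters stood in the promoters of 4 of the 9 clock list genes that were higher at ZT12 and have an entry, against 11% of the 12583 tested genes with an entry. The ROR element letters stood in 2 of the 4 clock genes higher at ZT0, against 2.36%, and the D-box letters in 1 of the 9, against 0.938%. A share over all called genes would be void, since fewer than 80% of tested genes have an entry. Shown here are the 30 bases around matches upstream of the start, 5′ to 3′, with the matched letters in capitals: the E-boxes of Ciart (3), Tef, Per1 and Bhlhe41, that of Cry1, which was higher at ZT0, the D-boxes of Per3 (2) and the ROR element of Nfil3 (its letters on the other strand).
Ciart, chr3:95882327-95882356, minus strand: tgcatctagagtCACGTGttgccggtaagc
Ciart, chr3:95882262-95882291, minus strand: ggaggCACGTGcagaaccgCACGTGtctgg
Tef, chr15:81802534-81802563, plus strand: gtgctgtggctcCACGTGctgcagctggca
Tef, chr15:81811264-81811293, plus strand: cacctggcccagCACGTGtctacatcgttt
Per1, chr11:69098771-69098800, plus strand: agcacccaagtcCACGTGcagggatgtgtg
Bhlhe41, chr6:145865556-145865585, minus strand: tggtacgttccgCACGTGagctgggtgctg
Cry1, chr10:85185097-85185126, minus strand: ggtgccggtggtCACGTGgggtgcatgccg
Per3, chr4:151044852-151044881, minus strand: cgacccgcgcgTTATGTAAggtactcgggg
Per3, chr4:151044805-151044834, minus strand: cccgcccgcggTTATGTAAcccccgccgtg
Nfil3, chr13:52981040-52981069, minus strand: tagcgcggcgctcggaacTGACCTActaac
The Tef matches come from 2 separate starts of the gene. A match in the Arntl promoter lay 30 bases past the start.

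The activators were high at lights on. Arntl (gene 11865, chr7:113178471-113314126), which encodes BMAL1, was at 90.5, 63.8, 72.9, 101 and 66.1 CPM in the 5 ZT0 libraries, in replicate order, and at 6.77, 4.5, 9.08, 8.63 and 6.6 CPM in the 5 ZT12 libraries. Its log2 fold change was -3.47 (SE 0.21, edgeR adjusted p = 3.29e-05), which is 11.1-fold, and no library came near the range of the other time. Npas2, which can stand in for CLOCK, was at 63.4, 48.9, 55.9, 80 and 61.9 CPM at ZT0 and at 15.2, 16.8, 8.87, 16.8 and 9.65 CPM at ZT12, a 4.61-fold difference with no overlap (adjusted p = 0.000702 in edgeR). Clock itself, at 74.3, 84.2, 80.8, 81.1 and 59.3 CPM and 54.6, 56, 50.3, 62.1 and 54 CPM, did not pass the test (log2 fold change -0.45, SE 0.10, edgeR adjusted p = 0.0648), and its groups overlapped because ZT0 replicate 5 lay below the highest ZT12 library. In a bulk section, fewer cells of a type and less RNA per cell cannot be told apart for any of these genes.

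The repressors were mostly high at lights off. Nr1d1 (gene 217166, chr11:98767932-98775377) was at 16.1, 38.9, 7.99, 15 and 17.2 CPM at ZT0 and at 75.6, 132, 158, 178 and 182 CPM at ZT12, with a log2 fold change of 2.93 (SE 0.40, edgeR adjusted p = 0.00904). Nr1d2 stood at 12.6, 47.7, 5.35, 12.3 and 16.7 CPM and 117, 139, 130.1, 136 and 138 CPM, so its ZT12 libraries were close together while ZT0 replicate 2 lay well above the other 4 (fold 6.97, edgeR adjusted p = 0.0307). Nr1d1 and Nr1d2 thus shared the order of their ZT0 libraries at both ends, with replicate 2 highest and replicate 3 lowest. Per1 was at 32.5, 54.2, 33.7, 40.8 and 25.1 CPM at ZT0 and at 132, 158, 128, 111 and 143 CPM at ZT12, 3.61-fold higher at ZT12 (edgeR adjusted p = 0.00109). For Per2 the values were 34.7, 47, 77.8, 47.1 and 21.7 CPM and 147, 168, 96.2, 220.4 and 149 CPM, which is 3.43-fold (edgeR adjusted p = 0.0361), and the gap between the highest ZT0 and the lowest ZT12 library was narrow. Per3 was at 18.7, 33.8, 17.8, 30.8 and 9.12 CPM and 66.9, 84.9, 59.5, 95.3 and 74.4 CPM (3.45-fold, edgeR adjusted p = 0.0309). All 3 Per genes kept the times apart, and ZT0 replicate 5 had the lowest level of each. Ciart (CHRONO), a repressor that binds BMAL1, had the largest difference of any called gene. It was nearly silent at ZT0, at 0.311, 1.143, 0.292, 0.438 and 0.575 CPM, and reached 22.7, 40.3, 28.3, 49.3 and 38.1 CPM at ZT12, a log2 fold change of 6.03 (SE 0.40, edgeR adjusted p = 4.58e-05). Bhlhe41 (DEC2), which represses at E-boxes, was at 0.867, 0.746, 0.486, 0.598 and 0.35 CPM and 2.28, 3.87, 2.79, 1.82 and 2.73 CPM, 4.39-fold higher at ZT12. Its relative Bhlhe40 (DEC1) did not pass, although its groups did not overlap, at 122, 129, 119, 107 and 64.5 CPM and 147, 202, 162, 246 and 192 CPM (log2 fold change 0.81, edgeR adjusted p = 0.0769).

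Of the Cry genes, Cry1 went the other way from the Per genes, while Cry2 had its higher mean on their side without passing. Cry1, whose product pairs with PER proteins, was higher at ZT0, at 63.9, 35.8, 66.6, 57.8 and 53.5 CPM against 34.4, 31, 26.8, 36.5 and 30.4 CPM (1.74-fold, edgeR adjusted p = 0.049), with ZT0 replicate 2 inside the ZT12 range. Cry2 had its higher mean at ZT12, 77.9 ± 7.54 CPM against 52 ± 13.2 CPM (mean ± SD, n = 5), and did not pass (edgeR adjusted p = 0.119). The difference between the Cry1 and Cry2 effects was not tested.

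Clock outputs had some of the steepest slopes. Dbp (gene 13170, chr7:45705100-45710203) was at 2.98, 4.9, 2.28, 3.49 and 3.72 CPM at ZT0 and 64.6, 120.1, 89.6, 108 and 109.8 CPM at ZT12, 28.3-fold higher at lights off (log2 fold change 4.82, SE 0.24, edgeR adjusted p = 7.7e-06), the smallest p of all genes. Tef, of the same family, was at 33.9, 55.5, 31.3, 45.5 and 23.6 CPM and 220.4, 311, 242, 298 and 288 CPM. Hlf, of this family too, was at 8.28, 5.58, 8.31, 6.1 and 8.35 CPM and 31.6, 35.2, 45.2, 26.4 and 41.2 CPM. The folds of Tef and Hlf were 7.17 and 4.9, and neither gene's groups overlapped. Nfil3, the repressor of the same D-box targets, was highest at the opposite time, at 15.2, 11.6, 16.3, 15 and 31.3 CPM at ZT0 and 6.22, 1.72, 2.48, 1.31 and 2.55 CPM at ZT12 (6.27-fold higher at ZT0, edgeR adjusted p = 0.0247). Within each time 1 library stood above the rest for Nfil3, ZT0 replicate 5 and ZT12 replicate 1, both among the 3 with the least Hoxb13.

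Other clock list genes differed little. Rora, a receptor that activates Arntl, was at 0.456 ± 0.261 and 0.529 ± 0.187 CPM (ZT0 then ZT12, mean ± SD, n = 5). The kinase genes Csnk1d, at 213 ± 26.1 and 193 ± 9.18 CPM, and Csnk1e, at 24.8 ± 2.52 and 26.5 ± 5.3 CPM, and Timeless, at 11.7 ± 3.0 and 8.36 ± 1.02 CPM, overlapped between times. None of these 4 passed in edgeR, and of them Timeless alone had an unadjusted p below 0.05. Leaving out single libraries left Arntl, Npas2, Ciart, Dbp, Nr1d1, Tef, Hlf, Bhlhe41 and Per1 called in 10 of 10 runs, Per3 in 5, Nr1d2 and Nfil3 in 4 each, Per2 in 3 and Cry1 in 2. These runs called 7 to 11 genes of the list higher at ZT12 and 2 to 5 higher at ZT0.

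Some of these genes overlap others on the map. Of 75 genes named by the rule, 17 overlap another tested gene and 0 overlap a called one. Sphk2, which overlaps Dbp, was at 109.7 CPM at ZT0 and 110.2 CPM at ZT12, and Thra, which overlaps Nr1d1, was at 61.9 and 48.7 CPM. Neither partner passed in edgeR, with adjusted p of 0.986 and 0.217. The counting's use of strand is not given in the sources used here.

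**Figure D2:**
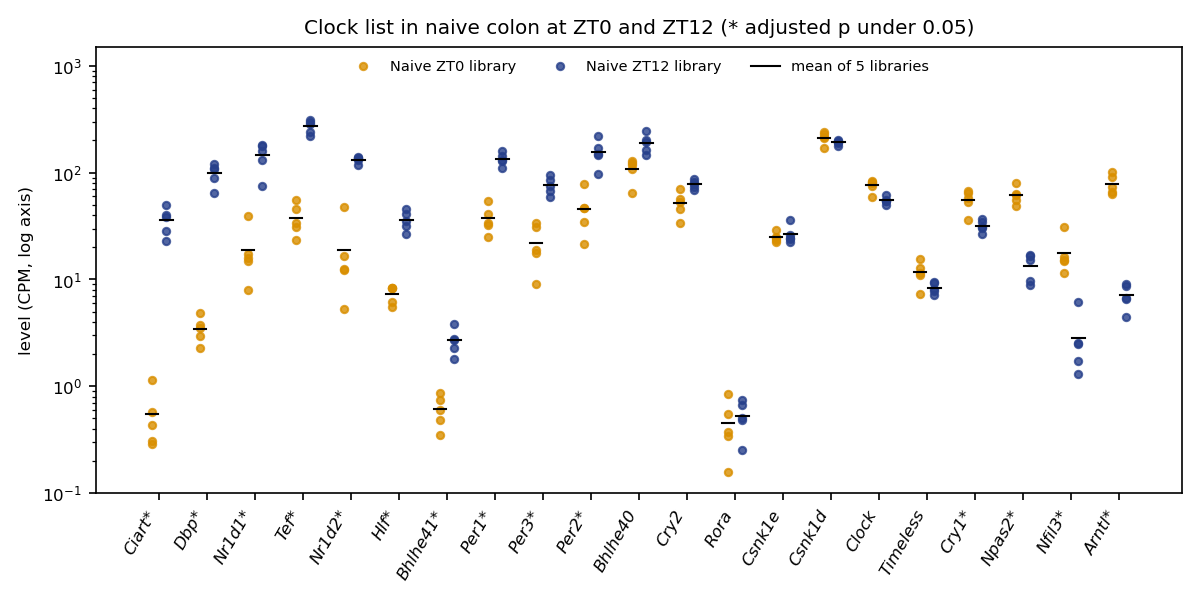
Level of 21 of the 23 tested clock list genes in each library (CPM, log axis; orange ZT0, blue ZT12, black line the mean of 5), ordered by fold change, with called genes starred. The 10 genes at the left from Ciart to Per2 separate the times with ZT12 above, Arntl, Nfil3 and Npas2 at the right separate them with ZT0 above, and Cry1 overlaps in 1 library.

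Outside that list, the genes with the smallest p at lights off included some that are tied to the clock by their products. Usp2, which encodes a deubiquitinating enzyme that acts on clock proteins, was at 28, 29.4, 33.2, 37.4 and 27.7 CPM and 89.9, 106, 74.7, 96.3 and 77.9 CPM, 2.86-fold higher at ZT12 (edgeR adjusted p = 0.00015). Cipc, whose product binds and inhibits CLOCK, was at 153, 175, 139, 152 and 139 CPM and 241, 312, 249, 324 and 360.5 CPM. Tspan4, a tetraspanin of cell membranes, was at 6.18, 4.74, 6.63, 5.72 and 7.0 CPM and 20.1, 24.3, 24.1, 20.6 and 22.6 CPM, the second smallest p among genes higher at ZT12 (log2 fold change 1.88, SE 0.12, edgeR adjusted p = 4.58e-05). All 3 separated the times and were called in 10 of 10 runs that left out a library. Cipc was outside the rule for named genes and was picked after its values were seen. The promoters of Cipc and Tspan4 held the E-box letters, shown here in the same way. Those of Ankrd12, Arhgap27, Coq10b, Lnx1 and Mchr1, also higher at ZT12 and outside the clock list, held them as well. Genes outside the clock list that were higher at ZT0 held them too, namely Bbc3, Ctc1, Espl1, Ffar2, Lonrf3, Ttk and Ubxn1, so the letters stood on both sides of the comparison. With the clock list included, 49 genes were called higher at ZT12 and 78 higher at ZT0. Shares are not given, for the reason above.
Cipc, chr12:86947313-86947342, plus strand: ggccgagccgggcCACGTGactggcgaaag
Tspan4, chr7:141476317-141476346, plus strand: cccccatggagcCACGTGcagagccacgag
Cys1, which encodes the cilium protein cystin, was at 4.82, 4.85, 4.2, 3.11 and 4.95 CPM and 15.2, 17.2, 15.5, 17.2 and 18.4 CPM (3.81-fold, edgeR adjusted p = 0.000119). Ccdc116, a coiled-coil gene, was at 10.3, 14.1, 8.02, 14.3 and 7.47 CPM and 20.9, 38.5, 29.2, 33 and 25.3 CPM (2.71-fold). Of all 49 genes higher at ZT12, 18 belonged to one of the 52 gene lists.

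Metabolic genes higher at ZT12 were few and spread over pathways. Dgat2, which makes the final step of triglyceride synthesis, was at 47.4, 43.5, 44.2, 36.6 and 77.7 CPM and 117, 120.3, 121, 86.3 and 119 CPM (2.26-fold, edgeR adjusted p = 0.0234). It was the only one of 21 tested fatty acid and triglyceride synthesis genes to pass, and the list's median log2 fold change was -0.09 (-0.13 to -0.019 with 1 library left out). Coq10b and Coq7, which serve coenzyme Q, averaged 41.9 and 94.6 CPM and 22 and 34.2 CPM at ZT0 and ZT12. Prkaa2, a catalytic subunit of the energy sensor AMPK, averaged 128 and 179 CPM, Gbe1, the glycogen branching enzyme, 12.5 and 19.7 CPM, and Ndufaf4, an assembly factor of respiratory complex I, 36.2 and 54.1 CPM. These 5 were outside the rule for named genes and were picked after their values were seen. Prkaa2, Gbe1 and Ndufaf4 each had an edgeR adjusted p of 0.0491, close to the threshold. In the 10 runs without 1 library Coq10b was called in 10, Dgat2 in 4 and Coq7 in 3. Prkaa2 and Ndufaf4 were called in 1 each and Gbe1 in 0. None of 74 nuclear respiratory chain genes, 31 fatty acid oxidation genes, 25 cholesterol genes or 26 glycolysis and hypoxia genes was called in edgeR. At an unadjusted p below 0.05, 6, 1, 0 and 7 of them were higher at ZT12, where 6.62% of all genes were. At ZT0 1, 2, 2 and 0 were higher, against 9.19%. Log2 fold changes were positive in 48, 9, 4 and 20 and negative in 26, 22, 21 and 6. The 7 glycolysis and hypoxia genes became 3 to 7 with 1 library left out. In these lists DESeq2 called 2, 2, 1 and 1 genes and limma-voom 1, 1, 1 and 0. Leaving out 1 library moved some of these counts, with up to 10 respiratory chain genes higher at ZT12 at an unadjusted p below 0.05 without ZT12 replicate 1 and 6 cholesterol genes higher at ZT0 without ZT12 replicate 2.

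Brush border genes of the absorptive epithelium were higher at lights off in a small number. Myo1a, the membrane myosin of microvilli, was at 351, 370.1, 344, 450.0 and 245 CPM and 478, 823, 628, 748 and 604 CPM (log2 fold change 0.90, SE 0.18, edgeR adjusted p = 0.0491). Anks4b, a scaffold of the links between microvilli, was at 97.3, 98.1, 77.6, 86 and 70.3 CPM and 111, 162, 211, 170.0 and 193 CPM (log2 fold change 0.98, SE 0.16, edgeR adjusted p = 0.0275). These were 2 of 23 tested genes in the list of keratins, desmosomes and brush border, in which the median log2 fold change was 0.08 with 16 positive, and -0.011 with 11 positive without ZT0 replicate 5. In edgeR 0 genes of this list were called higher at ZT0, with 1 at an unadjusted p below 0.05, and DESeq2 and limma-voom called 0. The call on Myo1a held in 2 and that on Anks4b in 3 of 10 runs without 1 library. Summed colonocyte markers overlapped between the times over the ranges given above. Other epithelial genes in the group were Slc16a5, a carrier of monocarboxylates (57 and 101 CPM at ZT0 and ZT12), Gda, guanine deaminase (121 and 261 CPM), and Tns4, a tensin of focal adhesions (143 and 312 CPM), again picked after their values were seen.

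Single genes of protein folding and RNA handling were higher at ZT12. Herpud1, which acts in the removal of misfolded proteins from the endoplasmic reticulum, was at 118, 128, 117, 114 and 84.5 CPM and 151, 182, 156, 210.3 and 206 CPM (edgeR adjusted p = 0.049), 1 of 67 genes of that compartment, of which 42 had a negative log2 fold change (median -0.048), with 4 higher at ZT12 and 9 higher at ZT0 at an unadjusted p below 0.05. Rbm3, an RNA-binding protein induced by mild cold, was at 64.9, 74.3, 50.3, 63.4 and 41 CPM and 118, 104, 123, 111 and 77.5 CPM (edgeR adjusted p = 0.049). It was 1 of 2 cold-inducible genes in its list, and the other had a negative log2 fold change. Herpud1 and Rbm3 kept the times apart, Rbm3 by a narrow margin. Rrp9, a part of the particle that processes ribosomal RNA, was at 10.1, 12.6, 12.7, 10.5 and 12.9 CPM and 15.5, 22.8, 19.2, 20.2 and 18.4 CPM, 1 of 63 ribosome biogenesis genes. Of these 63, 52 had a positive and 11 a negative log2 fold change (median 0.14). At an unadjusted p below 0.05, 12 were higher at ZT12 (7 to 23 with 1 library left out) and 3 higher at ZT0. Tra2a, a splicing regulator, was at 80.1, 93.6, 104, 78.8 and 79.8 CPM and 112, 132, 112, 141 and 129.8 CPM, 1 of 34 splicing genes. These 4 genes did not overlap between the times, but each was called in only 1 or 2 of 10 runs that left out a library. The heat shock and chaperonin list had no call in edgeR, but 30 of its 32 genes had a positive log2 fold change, with a median of 0.31, and 12 an unadjusted p below 0.05. That count was 19 (median 0.37) without ZT12 replicate 3, 6 (median 0.19) without ZT12 replicate 4, 8 without ZT0 replicate 1, and 22 (median 0.46) without the 3 libraries lowest in Hoxb13. The median was 0.21 without ZT12 replicate 5. DESeq2 called 4 of them, limma-voom 1 and edgeR with all 30 naïve libraries 9. Hspa8, the constitutive HSP70, was at 375, 565, 665, 393 and 482 CPM at ZT0 and at 871, 980.2, 538, 1422 and 1243 CPM at ZT12, and its groups overlapped because ZT12 replicate 3 lay among the ZT0 values. Hsp90ab1, the constitutive HSP90, was at 1160.1, 1314, 1248, 1185 and 1179 CPM and 1135, 1384, 821, 1870.5 and 1794 CPM, with the same library lowest of all 10.

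Stromal and nerve-associated genes were also present. Mgp, matrix Gla protein, an inhibitor of calcification made by stromal cells, was at 30.6, 23.3, 28.8, 21.5 and 39.7 CPM and 76.7, 88.7, 79.7, 62.1 and 63.3 CPM (2.57-fold higher at ZT12, edgeR adjusted p = 0.00461, called in 10 of 10 runs). Cdh19, a cadherin of glia and Schwann cells, was at 7.18, 5.88, 4.79, 3.07 and 8.02 CPM and 12, 15.1, 18.6, 12.6 and 16.2 CPM (2.58-fold, edgeR adjusted p = 0.037, called in 3 of 10 runs). It was the only one of 12 enteric glia genes to pass, and the summed level of 4 glial markers was 16.8 to 47.6 CPM at ZT0 and 34.6 to 50.4 CPM at ZT12; the part of glial content in the result was not tested. Vcam1, an adhesion molecule for leukocytes, averaged 12.8 CPM at ZT0 and 24.7 CPM at ZT12, and was picked after its value was seen. Of 18 genes induced by glucocorticoids, Per1 alone passed in edgeR, with 3 others at an unadjusted p below 0.05 in the same direction and 1 in the other. In all 12 log2 fold changes were positive and 6 negative. DESeq2 called 4 of the list higher at ZT12, limma-voom 3 and edgeR with all 30 naïve libraries 4, and each called 0 higher at ZT0.

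At lights on the largest group by function was cell division. Of 36 tested mitosis genes, 10 were higher at ZT0 and none at ZT12, against 0.467% and 0.294% of all genes. Every one of the 36 had a negative log2 fold change and an unadjusted p below 0.05 (33 to 36 with 1 library left out), with a median of -0.94 and a range of -1.31 to -0.29, and in 21 of them all 5 ZT0 libraries lay above all 5 ZT12 libraries, as in 2.76% of all genes. The mitosis score was 4.34, 4.38, 5.13, 4.58 and 4.14 in ZT0 replicates 1 to 5 and 3.52, 3.69, 4.02, 3.13 and 3.67 in ZT12 replicates 1 to 5. The lowest ZT0 library, replicate 5, thus lay above the highest ZT12 library, replicate 3. Summed levels of 4 crypt stem cell markers overlapped, at 71.5 to 112 CPM and 69.9 to 103 CPM.

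Among its members, Cdk1, the kinase that starts mitosis, was at 30.1, 28.6, 48.9, 33.6 and 22.6 CPM and 13.3, 17.2, 18.3, 12.3 and 15.3 CPM (2.14-fold higher at ZT0, log2 fold change -1.1, SE 0.20, edgeR adjusted p = 0.0377). Ndc80, which ties kinetochores to the spindle, was at 6.15, 5.02, 9.74, 8.63 and 6.07 CPM and 2.31, 3.04, 3.42, 2.57 and 3.05 CPM (2.47-fold). Espl1, the protease separase that lets sister chromatids part, was at 11.8, 10.8, 19.1, 14.5 and 10.9 CPM and 6.9, 4.99, 7.69, 3.82 and 5.55 CPM (2.32-fold). All 3 were lower in every ZT12 library than in any ZT0 library. Kif20a, a kinesin of cytokinesis, was at 10.2, 9.75, 16.2, 12.8 and 9.4 CPM and 5.23, 6.21, 6.67, 4.6 and 6.7 CPM (1.98-fold). In each of these 4 genes ZT0 replicate 3 was the highest of all libraries. Also called in this list were Prc1, Bub1b, Ect2, Kif23, Incenp and Ttk, which build or guard the spindle and the cleavage furrow. E2f2, a transcription factor of the E2F family that acts on cell cycle genes, was no member of the list and differed more, at 71.9, 65.4, 99.4, 87.8 and 43.8 CPM and 15, 11.1, 22.4, 9.31 and 17.1 CPM (4.92-fold, edgeR adjusted p = 0.00347). Ncaph, a condensin subunit, was at 14.1, 10.8, 23.4, 18.4 and 12.3 CPM and 8.1, 8.0, 8.04, 5.88 and 5.98 CPM (2.19-fold). Further division genes outside the list and seen only after the calls were Kif15, Kif18b, Kif22, Kntc1, Cdca2, Cdca5, Dlgap5, Dtl and Fancd2, all higher at ZT0.

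Promoters of mitosis genes often hold a cell cycle homology region (CHR), searched for here as TTTGAA or TTCGAA on both strands. It stood in 24 of the 30 mitosis list genes with an entry, against 16.8% of tested genes with one. Matches upstream of 3 genes called above are shown, with the letters in capitals.
Cdk1, chr10:69352966-69352995, minus strand: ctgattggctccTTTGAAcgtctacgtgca
Cdk1, chr10:69352913-69352942, minus strand: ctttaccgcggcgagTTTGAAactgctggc
Prc1, chr7:80294434-80294463, plus strand: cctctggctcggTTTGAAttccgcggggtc
Bub1b, chr2:118598011-118598040, plus strand: tctctccctgggTTCGAAggcttgtcttag

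The adjusted calls on mitosis genes moved with the libraries in the fit, while the direction did not. Leaving out ZT0 replicates 1 to 5 in turn left 0, 1, 2, 0 and 18 mitosis genes called higher at ZT0, and leaving out ZT12 replicates 1 to 5 left 1, 0, 3, 0 and 0. Without the 3 libraries lowest in Hoxb13 7 were called, all 36 still had a negative fold change and an unadjusted p below 0.05, and the median was -1.11. DESeq2 called 32 of them, limma-voom 17 and edgeR with all 30 naïve libraries 18. DNA replication genes differed less. Of 50 tested none was called in edgeR, 49 had a negative log2 fold change (median -0.53) and 36 an unadjusted p below 0.05 (26 to 42 with 1 library left out), while DESeq2 called 14, limma-voom 1 and edgeR with all 30 naïve libraries 12. Pcna, the sliding clamp of DNA polymerase, was at 67.9, 43, 89.1, 73.1 and 66 CPM and 55.2, 64.7, 51.6, 66.7 and 44.7 CPM, with overlap on both sides, and the polymerase subunit gene Pold3 was at 81.8, 76.1, 87.8, 86.6 and 86 CPM and 83.8, 71.3, 75.5, 82.3 and 74.6 CPM. The replication score ranged from 3.76 to 4.66 at ZT0 and from 3.55 to 3.91 at ZT12, where ZT0 replicate 2 lay inside the ZT12 range.

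**Figure D3:**
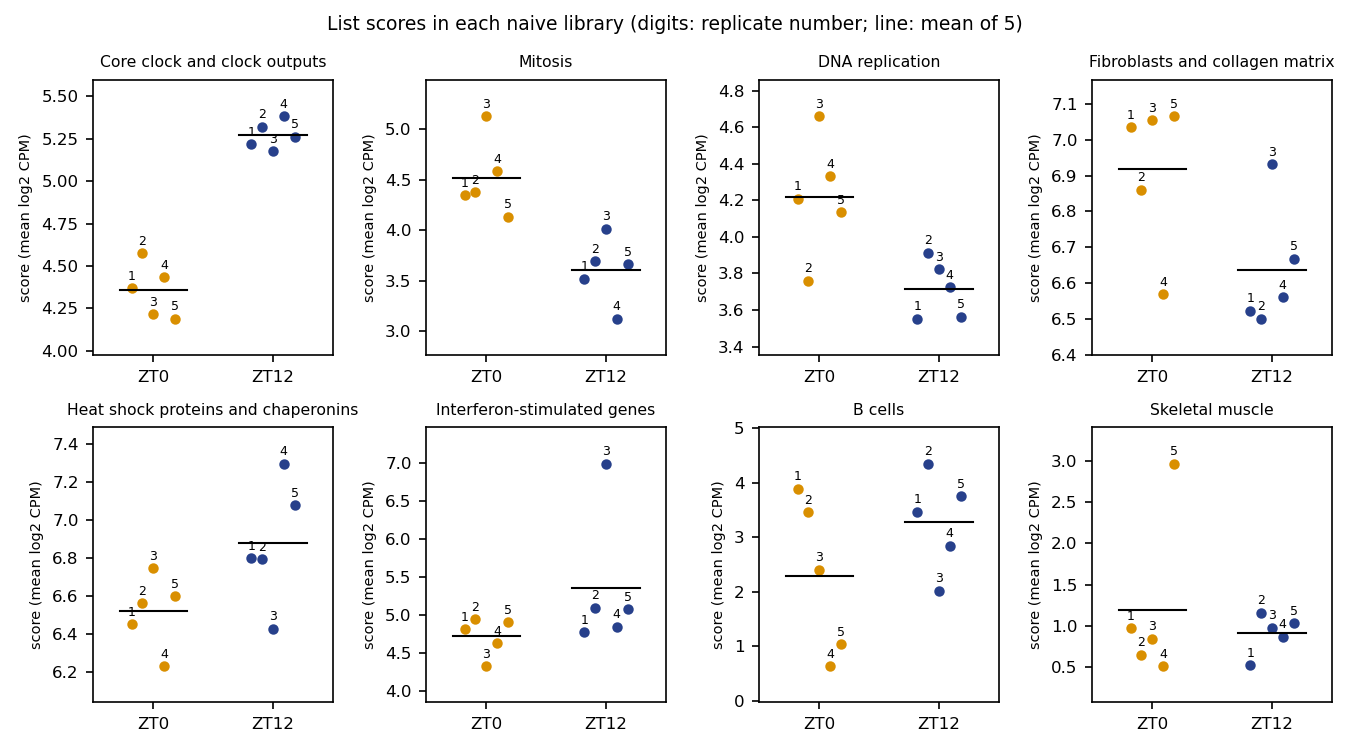
Score of 8 gene lists (mean log2 CPM of the list's tested genes) in each library, with orange points for ZT0, blue points for ZT12, replicate numbers as digits and the mean of 5 as a line. Clock and mitosis scores separate the times in opposite directions, whereas the interferon score is set apart by ZT12 replicate 3 and the skeletal muscle score by ZT0 replicate 5.

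Some matrix genes were also higher at lights on. Eln, which encodes elastin, was at 58.5, 66.3, 85.3, 40.2 and 51.2 CPM and 21.8, 28.1, 26, 25.8 and 28.1 CPM (2.32-fold higher at ZT0, edgeR adjusted p = 0.0128). Lox, lysyl oxidase, which cross-links elastin and collagen, was at 5.38, 4.62, 5.39, 2.99 and 4.22 CPM and 1.72, 1.53, 2.13, 1.73 and 1.64 CPM (2.58-fold). Col1a1, a chain of type I collagen, was at 283, 252, 310.4, 209 and 255 CPM and 134, 153, 194, 156 and 172 CPM (1.62-fold, edgeR adjusted p = 0.0377). These 3 of 23 fibroblast and collagen genes separated the times, and the list's median log2 fold change was -0.27, with 17 of 23 negative. At an unadjusted p below 0.05, 9 were higher at ZT0 and 2 higher at ZT12. Of 4 fibroblast markers Col1a1 alone was called. The others had higher means at ZT12, with Dcn at 276 and 307 CPM, Lum at 61.1 and 80.8 CPM and Pdgfra at 71.4 and 73.6 CPM. The 4 summed to 513 to 823 CPM at ZT0 and 590 to 715 CPM at ZT12. Eln was called in 10, Lox in 9 and Col1a1 in 3 of 10 runs without 1 library. The fibroblast score overlapped, at 6.57 to 7.07 at ZT0 and 6.50 to 6.93 at ZT12, and the smooth muscle score, 7.08 to 8.19 and 7.60 to 8.48, overlapped as well. When the score of smooth muscle entered the fit as a term, 7 genes of the list were called. Spon2, a secreted matrix protein, was outside the list and among the genes with the smallest p, at 108, 76.8, 87.6, 70.4 and 109.8 CPM and 19.8, 18.5, 31.1, 18.6 and 17.1 CPM (4.31-fold, edgeR adjusted p = 0.000402). Adamts4, a protease of matrix proteoglycans, and Gdf5, a growth factor of the BMP family, had low levels, with means of 3.73 and 0.582 CPM and of 1.94 and 0.504 CPM at ZT0 and ZT12, and were picked after their values were seen.

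Among barrier genes of the epithelium, some claudins were higher at ZT0. Cldn8, a claudin of tight junctions in the distal gut, was at 94.1, 101, 93.6, 156 and 70.1 CPM and 20.3, 21.3, 18.1, 27.2 and 20.4 CPM (4.8-fold, log2 fold change -2.26, SE 0.20, edgeR adjusted p = 0.000349, called in 10 of 10 runs). Cldn4, another claudin, was at 100.04, 120.3, 69.9, 84.3 and 47.1 CPM and 33, 27.6, 48.1, 35.4 and 31.7 CPM (2.4-fold), where ZT0 replicate 5 fell just below the highest ZT12 library. Cldn23 was at 115, 133, 80.9, 119.7 and 99.2 CPM and 55.5, 56.4, 76.4, 58.2 and 72.1 CPM (1.72-fold). These were 3 of 20 tight junction genes, whose median log2 fold change was -0.10, with 15 of 20 negative. The median was -0.15 without ZT0 replicate 5, -0.055 without ZT0 replicate 2, -0.030 without ZT0 replicate 4, and -0.17 without the 3 libraries lowest in Hoxb13. Cldn4 was called in 2 and Cldn23 in 3 of the 10 runs. Other single genes of the epithelium were higher at ZT0. Trpm6, a channel for magnesium uptake in the colon, was at 102, 64.5, 72.3, 150.03 and 48.3 CPM and 25.6, 26.1, 23.2, 36.2 and 31.4 CPM (3.07-fold). Ffar2, a receptor for the short-chain fatty acids made by gut bacteria, was at 115, 102, 115, 107 and 83.1 CPM and 56.2, 43.8, 59.2, 57.5 and 68.6 CPM (1.83-fold, edgeR adjusted p = 0.0124). Cyp2s1, a cytochrome P450, was at 129, 123, 128, 138 and 122 CPM and 86.2, 92.3, 81.6, 82.5 and 87.4 CPM (log2 fold change -0.58, SE 0.06, edgeR adjusted p = 0.00173), and was 1 of 42 detoxification genes. These 3 genes also kept the times apart, and Ffar2 and Cyp2s1 were called in 10 each and Trpm6 in 3 of the 10 runs. The detoxification list had 31 of 42 positive log2 fold changes (median 0.18), and without ZT0 replicate 5 it had 13 genes higher at ZT12 at an unadjusted p below 0.05, against 1 with it. The list of bile acid and short-chain fatty acid sensing, which holds Ffar2, had 6 of 9 positive (median 0.16). In the list of colonocyte ion and nutrient transport, which held no gene called in edgeR, 19 of 29 were positive (median 0.16), with 5 higher at ZT12 and 1 higher at ZT0 at an unadjusted p below 0.05, and DESeq2 called 3 and 1 and limma-voom 2 and 1.

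Signalling genes at ZT0 included targets and brakes of growth factor pathways. Ier5, an immediate early gene, was at 87.2, 78.1, 65.4, 67.9 and 67.2 CPM and 44.9, 45.8, 42.1, 42.2 and 39 CPM (edgeR adjusted p = 0.00347). Dusp6, a phosphatase that switches off ERK, was at 68.2, 62.9, 82.3, 61.2 and 66.5 CPM and 39.3, 43, 42.4, 52.2 and 51 CPM (1.5-fold, edgeR adjusted p = 0.0423). Ier5 was called in 10 and Dusp6 in 1 of the 10 runs without 1 library. Both separated the times and were 2 of 33 immediate early genes, of which 23 had a negative log2 fold change and the median was -0.38, or -0.22 without ZT0 replicate 5 and -0.19 without the 3 libraries lowest in Hoxb13. Hbegf, a ligand of the EGF receptor, Bbc3 (PUMA), a promoter of apoptosis, and Arrb1, a β-arrestin, were also called, with means of 43.3 and 20.9 CPM, 11.7 and 4.82 CPM, and 264 and 158 CPM, and were picked after their values were seen. Pla2g3, a secreted phospholipase A2, was at 30.2, 29.8, 36.3, 47.5 and 31 CPM and 7.39, 8.56, 15.3, 11.5 and 10.6 CPM (3.27-fold). Ypel2 was at 39.5, 47.9, 28.5, 46.1 and 30.8 CPM and 15.7, 12.9, 15, 13.7 and 15.6 CPM (2.64-fold, edgeR adjusted p = 0.00199). Both were 2.64-fold or more higher at ZT0. Bnip5 was at 175, 206, 130.3, 211 and 104 CPM and 34.4, 52.2, 84.4, 70.7 and 59.7 CPM. Lonrf3 was at 21.9 ± 4.29 and 9.7 ± 2.23 CPM, and Fcho1, which starts clathrin-coated pits, was at 20.6 ± 5.29 and 9.56 ± 2.28 CPM (mean ± SD, n = 5). In the 10 runs without 1 library, Pla2g3 and Ypel2 were called in 10 each, Lonrf3 in 7 and Arrb1 in 5. Hbegf and Bnip5 were called in 3 each, Bbc3 in 2 and Fcho1 in 1. Of all 78 genes higher at ZT0, 24 belonged to one of the gene lists.

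Across the 52 lists, 15 held a called gene, 8 of them only genes higher at ZT12 and 6 only genes higher at ZT0. The clock list alone held both. Some lists without a call had most members on one side. The interferon-stimulated list had 37 of 38 genes with a positive log2 fold change and a median of 0.76, with ZT12 replicate 3 far above the other libraries. Oasl2, an interferon-induced gene, was at 103, 123, 645, 114 and 186 CPM at ZT12 and at 62.9, 94.5, 35.6, 58.2 and 74.2 CPM at ZT0, and Irf7, the regulator of the response, at 245, 139, 609, 149 and 268 CPM and 370.2, 226, 243, 225 and 529 CPM. Without that library the list's median was 0.21, with 29 of 38 positive and 7 genes in place of 20 higher at ZT12 at an unadjusted p below 0.05. Without ZT0 replicate 3 that number was 11. For 16 B cell genes the median was 0.69 with all positive. It was 0.40 without ZT12 replicate 2, 0.44 without ZT0 replicate 5 and 1.19 without ZT0 replicate 1, when 4 genes had an unadjusted p below 0.05. Their scores ran from 0.64 to 3.89 at ZT0 and from 2.02 to 4.35 at ZT12, so that the times overlapped widely. Cd79a, part of the B cell receptor, was at 28.9, 23.6, 17.1, 7.91 and 6.57 CPM and 23.8, 41.9, 8.56, 17 and 27.4 CPM, and Spib, a B lineage transcription factor, at 28.5, 22.7, 13.5, 11.6 and 6.97 CPM and 26.3, 36.6, 15.3, 16.1 and 29.6 CPM. Of 29 enteric neuron genes 28 were positive, with a median of 0.41, which was 0.26 without ZT0 replicate 4. Their number at an unadjusted p below 0.05 was 13 without ZT0 replicate 5, 10 without ZT0 replicate 1, and 0 to 4 without any other single library. ZT0 replicate 4 had the lowest neuron score, 2.33, against 2.95 to 3.80 elsewhere, and also the lowest smooth muscle score. Scg2, a granin of nerve cells, was at 61.1, 34.6, 31.5, 16.7 and 61.5 CPM and 48.8, 61.6, 70.9, 51.7 and 53.1 CPM, while the neuropeptide gene Vip was at 78.1, 76.4, 76.8, 56.6 and 73.6 CPM and 40, 126, 52.5, 97.7 and 56.3 CPM. In edgeR none of these genes was called, with 20, 0 and 3 of each list at an unadjusted p below 0.05, and DESeq2 called 3, 0 and 0 and limma-voom 0 in each. T and NK cell genes had a median of 0.77 and 1 of 19 at an unadjusted p below 0.05 (0 to 7 with 1 library left out, the most without ZT0 replicate 1), with Lck at 5.99 ± 1.23 and 7.42 ± 1.59 CPM and Cd4 at 4.45 ± 1.72 and 5.67 ± 1.76 CPM. Of 14 MHC class I and immunoproteasome genes 13 were positive (median 0.31). At an unadjusted p below 0.05, 7 were higher at ZT12 (4 to 8 with 1 library left out). DESeq2 called 2 of them and limma-voom 1. Of 77 cytosolic ribosomal protein genes 68 were positive (median 0.081). All 8 mesothelium genes were negative (median -0.87, but 0.046 without ZT0 replicate 5). In the smooth and skeletal muscle lists edgeR called 0 genes, with 2 and 3 at an unadjusted p below 0.05. DESeq2, limma-voom and edgeR with all 30 naïve libraries each called 0 and 1, the latter higher at ZT0. The smooth muscle genes Tagln and Myh11 were at 1824 ± 474 and 2219 ± 562 CPM and at 2493 ± 676 and 3297 ± 1093 CPM, and the 16 skeletal muscle genes had a median of -0.55 with ZT0 replicate 5 and of 0.26 without it, with Ckm at 19.4 ± 11.7 and 24.4 ± 10.6 CPM and Eno3 at 148 ± 79.3 and 208 ± 198 CPM. Goblet cell, enteroendocrine, tuft cell, macrophage and plasma cell lists had medians between -0.12 and 0.08 and no call in edgeR, with 0, 0, 1, 5 and 0 genes at an unadjusted p below 0.05 (4 goblet cell genes without ZT12 replicate 1), and DESeq2 and limma-voom called 0 in each.

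**Figure D4:**
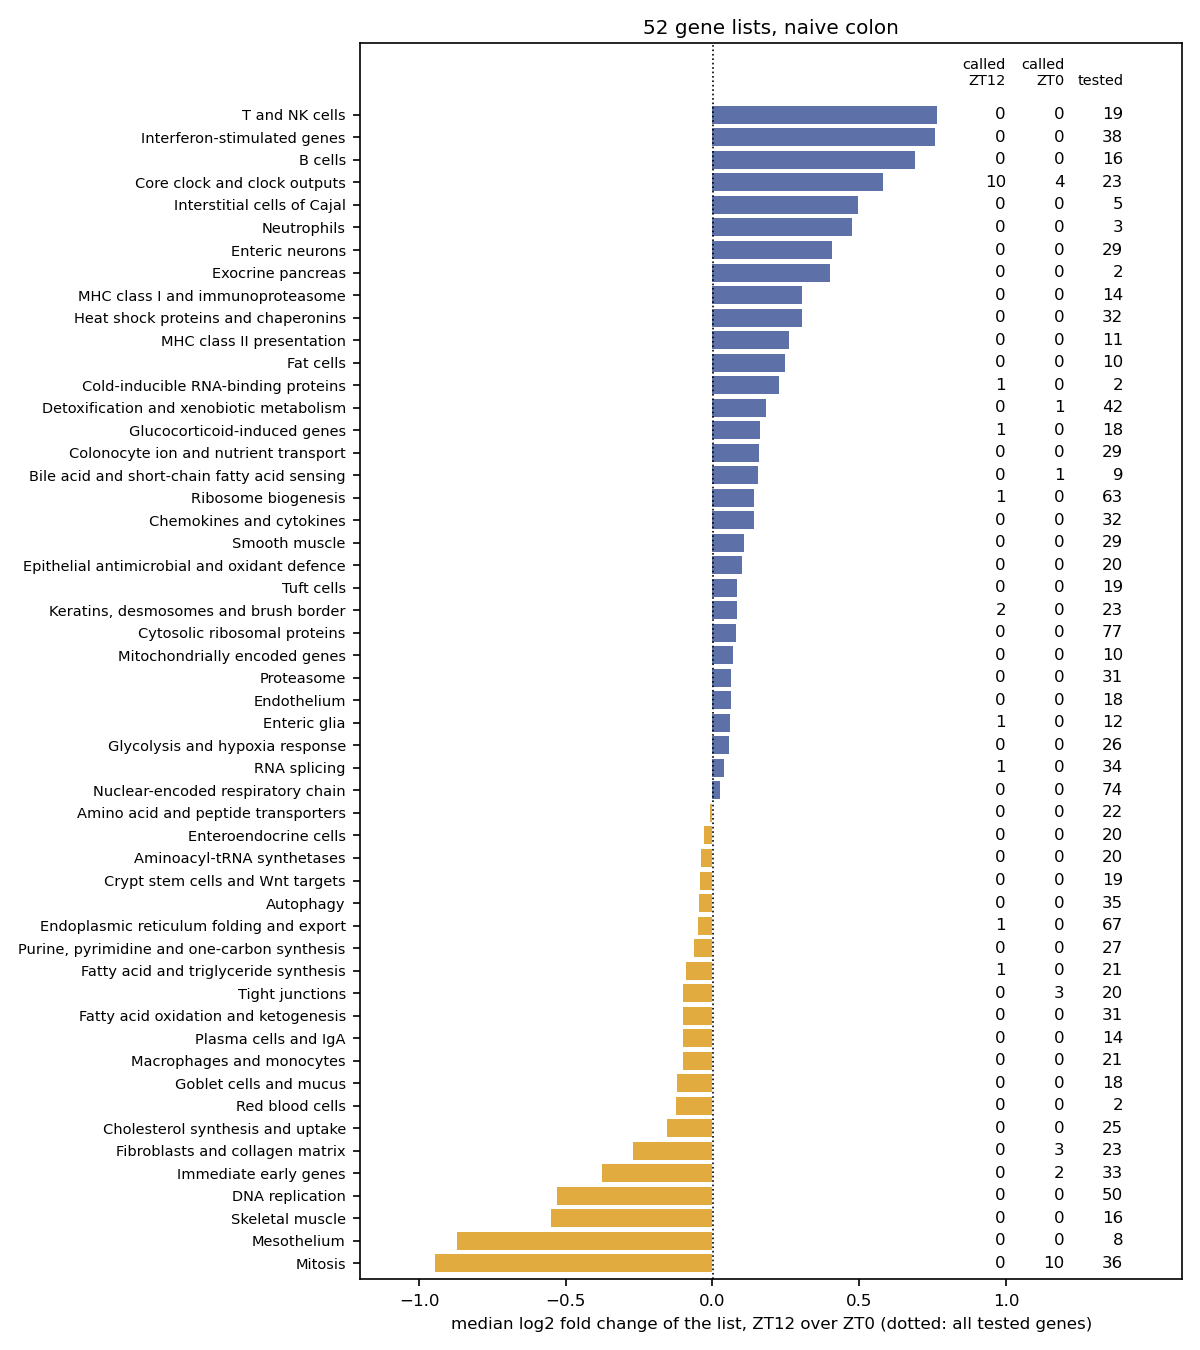
Median log2 fold change (ZT12 over ZT0) of each of the 52 gene lists, with the median of all tested genes as a dotted line and, at the right, the number of members called higher at ZT12, called higher at ZT0 and tested. The mitosis list lies lowest with 10 of 36 called, and the clock list holds 14 of 23 called, while the lists of T and NK cells, interferon and B cells have high medians and no call.

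The called genes were also counted in the pathway sets of Reactome. Of 897 sets with 10 to 500 tested genes, 726 had 15 or more. Of these 726, 53 held a gene higher at ZT12 and 209 a gene higher at ZT0. The set for genes activated by BMAL1 with CLOCK or NPAS2 had the largest share in both directions among sets of 15 genes or more, 5 of 15 higher at ZT12 (Dbp, Per1, Nr1d1, Bhlhe41 and Per2) and 3 of 15 higher at ZT0 (Arntl, Npas2 and Cry1). Next by share at ZT0, clock sets aside, came kinesins, with 3 of 21, then small ERBB signalling sets that held Hbegf and Cdk1. Elastic fibre formation had 3 of 37 (Eln, Lox and Gdf5) and mitotic prometaphase 7 of 99. At ZT12 the sets next by share after the clock were of AMPK and mTOR signalling and mitochondrial biogenesis, with Prkaa2 alone, and then of nuclear receptors, with Nr1d1 and Nr1d2. Shares here are counts, and no test was made on the sets.

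The other naïve libraries place these genes within the day. At each of ZT4, ZT8, ZT16 and ZT20 there were 5 naïve libraries, and means over the 6 times, from all 30 libraries scaled together, were compared as a description. Of the 49 genes higher at ZT12, 40 had their highest mean at ZT12, 8 at ZT8 and 1 at ZT16. Of the 78 genes higher at ZT0, 39 were highest at ZT0, 25 at ZT4, 13 at ZT20 and 1 at ZT8, and 69 were lowest at ZT12. The ZT0 and ZT12 means come from the libraries on which these genes were called. Highest and lowest means at those times are thus partly set by the choice of genes. The same was not counted over all tested genes, so these counts are no separate support for the calls. Nr1d1 was highest at ZT8, with a mean of 254 CPM, so that neither end of the light phase caught its maximum, and Per2 was highest at ZT16. Cry1 was lowest at ZT8 (13.9 CPM) and highest at ZT20 (72.9 CPM), so that both times of this comparison lay on its slopes. The mitosis score was 4.51 ± 0.378 at ZT0, 4.54 ± 0.341 at ZT4, 4.1 ± 0.189 at ZT8, 3.6 ± 0.323 at ZT12, 3.6 ± 0.72 at ZT16 and 4.13 ± 0.342 at ZT20 (mean ± SD, n = 5). The DNA replication score had its lowest mean at ZT8, 3.56 ± 0.232, and its highest at ZT20, 4.43 ± 0.104, and the heat shock score was lowest at ZT8, 6.2 ± 0.0912, and highest at ZT12, 6.87 ± 0.327.

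**Figure D5:**
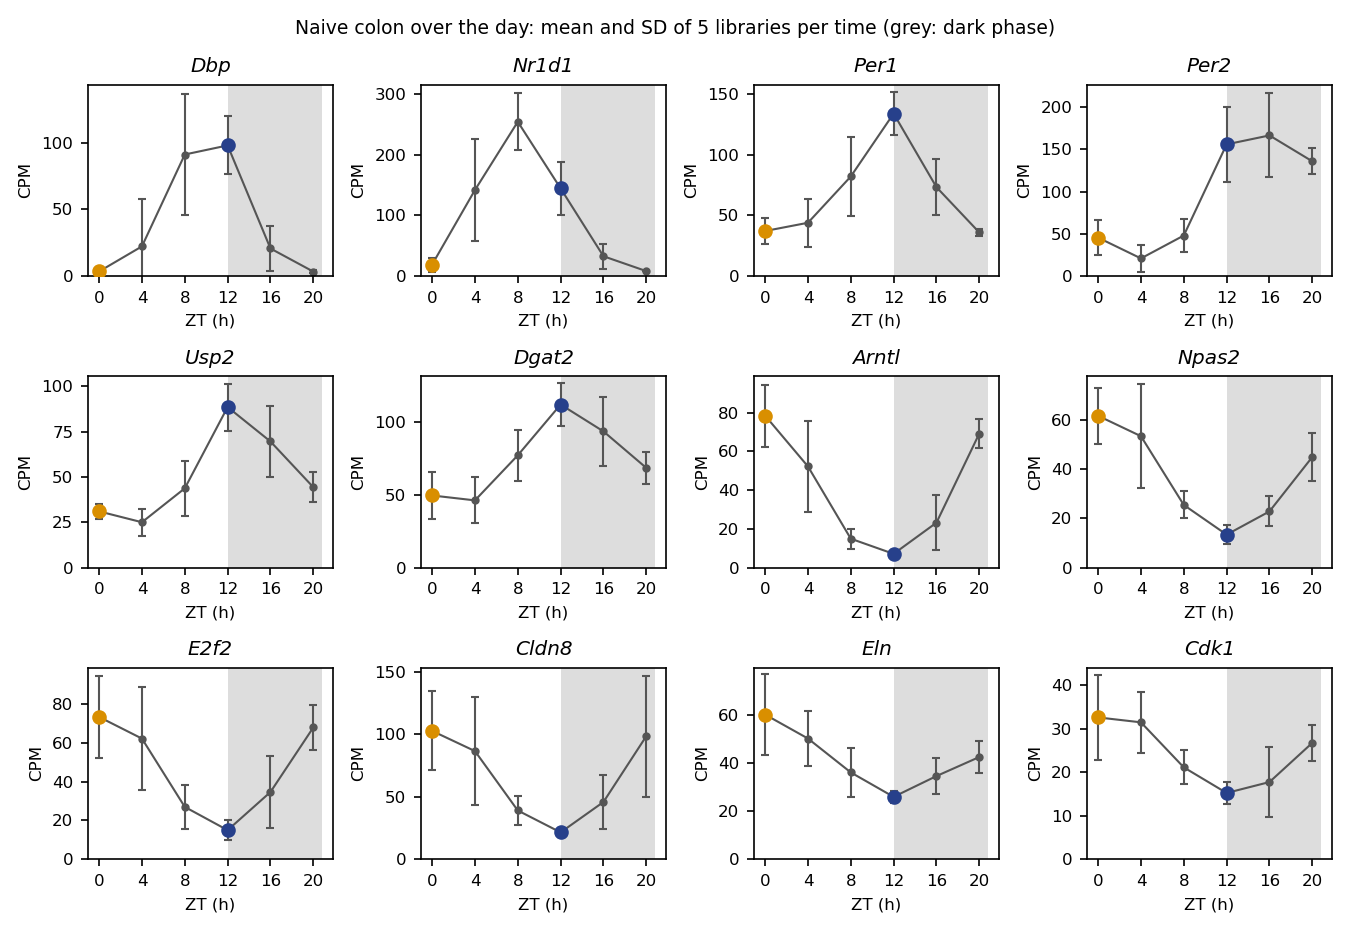
Mean level (CPM, with SD as bars) of 12 called genes in the 5 naïve libraries at each of the 6 times, with ZT0 in orange, ZT12 in blue and the dark phase in grey. Dbp, Per1, Usp2 and Dgat2 peak at ZT12, Nr1d1 peaks at ZT8 and Per2 at ZT16, and the 6 genes higher at ZT0 all have their lowest mean at ZT12.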

How the data were processed

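RNA-seq of the colon was taken from the table of read counts per gene, which the authors deposited as raw, whole-number counts. Per the labels and the study's methods, reads from a stranded mRNA kit were demultiplexed (bcl2fastq 2.17.1.14), trimmed (Trimmomatic 0.36), aligned with STAR (2.5.3, mm10) and counted per gene with Rsubread. Of counts between 1 and 20, 72.6% were even, against 50.1% among the top 1% of counts, which the sources used here do not account for. Gene names and positions came from RefSeq (25275 IDs matched, 1904 not, with 0.52% of counts). Genes were kept by filterByExpr (minimum count 10, minimum total 15), scaled by TMM and tested with edgeR's quasi-likelihood F test (edgeR 4.0.16, R 4.3.3), with the 10 libraries and group as the only term, and Benjamini-Hochberg adjustment over 16694 genes at 0.05. The SE was the log2 fold change divided by the root of F. CPM were computed from the counts with the TMM library sizes. Alternatives used limma-voom with quality weights (3.58.1), DESeq2 (1.42.0), other scalings and filters, the replicate block and left-out libraries. On simulated data for this comparison, with 16694 genes, edgeR called 82 of 100 genes changed 2-fold and 96 of 100 changed 3-fold, with 12 false calls. The changed genes averaged 5 CPM or more, and counts were drawn independently for each gene. Variation shared by many genes, as along the first principal component, was not simulated, so these rates need not hold for the real libraries.

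The members and gene lists (52 lists, 1350 of 1351 entries matched) were chosen with earlier results of these data known. Named genes were the clock list, the 15 largest folds in each direction among called genes that averaged 10 CPM or more and did not overlap, the 5 smallest p in each direction, up to 4 called genes of each described list and direction by smallest p (or, with none called, the 2 of highest level), and the cell type markers, which are given as sums. Reactome sets came from an installed R package's example data, by gene ID. The arthritis libraries were not used, and 2 genes of the clock list are not reported here.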

Additional observations from a re-analysis of the deposited data

Results flagged for a closer look

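Among 196 sets of 5 values (150 of gene levels and 46 of list scores), 13 held 1 library that lay far from the other 4 by Dixon's test, which chance gives in about 1 in 20. Of these, 10 were gene levels and 3 were scores.

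ZT12 replicate 3 was involved in 4 of them. It had an interferon score of 6.986 against 4.77 to 5.091 in the other ZT12 libraries, Oasl2 at 645.5 CPM against 103.2 to 186.4, Irf7 at 608.8 CPM against 139.2 to 268.1, and Spon2 at 31.06 CPM against 17.12 to 19.76. ZT0 replicate 5 was involved in 3, with a skeletal muscle score of 2.963 against 0.5176 to 0.9739, Dgat2 at 77.65 CPM against 36.61 to 47.43, and Nfil3 at 31.27 CPM against 11.57 to 16.33.

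ZT12 replicate 1 had Nfil3 at 6.218 CPM against 1.313 to 2.547, Csnk1e at 35.71 CPM against 22.3 to 25.85, and a score of keratins, desmosomes and brush border of 8.484 against 8.794 to 8.83. Nr1d2 was at 47.73 CPM in ZT0 replicate 2 against 5.345 to 16.69, Vip at 56.61 CPM in ZT0 replicate 4 against 73.6 to 78.14, and Dgat2 at 86.28 CPM in ZT12 replicate 4 against 117.3 to 121.1. The cause of these values was not tested.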

How the results depend on the processing

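Counts of genes higher at ZT12 and at ZT0, 49 and 78 in edgeR, became 312 and 523 with DESeq2, 136 and 260 with limma-voom, 186 and 398 with all 30 naïve libraries, and 12 and 13 at an adjusted p under 0.01. Without a filter on low counts they were 40 and 45. Without the 3 libraries lowest in Hoxb13 they were 76 and 123, and without ZT0 replicate 5 and ZT12 replicate 3 they were 39 and 103, both chosen after seeing the data. Leaving out 1 library gave 17 to 92 and 16 to 198. Other scalings, a minimum of 5 CPM and counts divided by 2 stayed within 1.5 times of both. With a replicate block the counts were 21 and 21, and 36 of the 127 genes were retained. Same-numbered libraries deviated with correlations of -0.134, 0.256, -0.0599, 0.535 and -0.00334. Their mean was 0.119, against -0.0266 for libraries of other numbers. The labels do not say what the numbers share, so they were read as names. Whether same numbers share a day or batch was not tested. No called gene reversed. Genes far from the threshold did: Csnk1e had log2 fold changes of -0.034 to 0.16 with 1 library left out and -0.0056 without the 3 libraries, Eno3 -0.12 to 0.77 and -0.055 in limma-voom, Irf7 -0.67 to 0.085, and Vip -0.22 to 0.20, -0.14 in limma-voom and -0.079 with the replicate block. The cause was not tested. Of the called genes, 15 and 37 had an adjusted p over 0.04 in edgeR, close to the threshold. Genes called in all 10 runs without 1 library numbered 15 and 15.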

Other observations

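Other called genes, named here after their values were seen, are given by their means. At ZT12 these were Tgm7, a transglutaminase, with means of 0.772 CPM at ZT0 and 5.31 CPM at ZT12, Mchr1, a receptor for melanin-concentrating hormone (0.538 and 2.29 CPM), and Car14, a membrane carbonic anhydrase (1.19 and 4.14 CPM). At ZT0 they included Cd248, a receptor of pericytes and fibroblasts (18.5 and 11.3 CPM), Slc9a5, a sodium and proton exchanger (15.4 and 8.88 CPM), Tspan8, an epithelial tetraspanin (589 and 438 CPM), and Mogat2, an enzyme of triglyceride synthesis from monoacylglycerol (36.9 and 19.2 CPM), whose groups overlapped. Mogat2 was thus higher at ZT0 and Dgat2 higher at ZT12.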
